A study of Mus musculus with 8 samples.

Results

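The vitamin D receptor axis was followed through 9 genes: the receptor gene Vdr, the calcitriol-handling enzyme genes Cyp24a1, Cyp27b1 and Cyp27a1, the retinoid X receptor genes Rxra and Rxrb, and the coregulator genes Nrip1, Ncoa1 and Ncor1. Members were all probe sets that the platform annotation gives to 1 of these genes alone. This found 13 of the 22626 probe sets without controls, for 8 of the 9 genes. The annotation used here lists no probe set for Ncor1, a corepressor of unliganded nuclear receptors, which was therefore not analysed here.

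The cells were mouse bone marrow derived macrophages, grown for 7 days in 50 ng/ml of M-CSF, the macrophage growth factor. The 8 groups, with 1 array each, were Vdr-/- and wild-type cells with IFN-gamma and calcitriol together, with IFN-gamma alone, with calcitriol alone, and labelled as not treated. Calcitriol is 1alpha,25(OH)2D3, the hormonally active form of vitamin D, and IFN-gamma is the cytokine of classical macrophage activation. Treatments ran for 24 to 48 hours. The labels name the knockout allele Vdr tm1 Rge and no other altered gene. The sources used here do not state the strain, sex and age of the mice, how many mice made an array, or the doses. No group had a replicate, so no single value below carries an SD, and tests took their spread from contrasts repeated across array pairs.

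The receptor encoded by Vdr is a nuclear receptor that binds calcitriol, pairs with a retinoid X receptor and attaches to response elements near its target genes. Coactivators such as Ncoa1 and corepressors such as Nrip1 and Ncor1 then set the output. Cyp27b1 makes calcitriol from its precursor, and Cyp24a1 breaks it down and is among the most strongly calcitriol-induced genes known in many cell types. Macrophages are known for making calcitriol themselves with Cyp27b1 when they are activated.

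Median signal per array ran from 53.5 to 68.3. All 8 macrophage markers read above the floor, the pooled 25th percentile of signal (15.5), on all 8 arrays. Of 20 markers of neutrophils, stromal, lymphoid and dendritic cells with a probe set, 2 (S100a8 and Col1a2) did so. The IFN-gamma labels fitted Irf1, an interferon response factor, which read 3348.8 to 4098.1 with IFN-gamma and 192.8 to 428.7 without it. The ratio of 3' to 5' Gapdh control signals, which rises when labelled RNA is truncated, was 7.67 on the wild-type calcitriol array, 4.82 on the array labelled Vdr-/- untreated, 3.06 for Vdr-/- with IFN-gamma and between 0.853 and 1.65 on the remaining 5 arrays. With 8 arrays, precision is limited by their number.

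The 250 bases before the transcription start of Vdr, and before the first of the 2 annotated starts of Nrip1, are shown because Nrip1 was the member that passed a test, and Vdr is the targeted gene. Sequences are from RefSeq for GRCm38.p6, 5′ to 3′ on the minus strand of both genes, and capitals mark matches to the motifs named next.
Nrip1, chr16:76373828-76374077: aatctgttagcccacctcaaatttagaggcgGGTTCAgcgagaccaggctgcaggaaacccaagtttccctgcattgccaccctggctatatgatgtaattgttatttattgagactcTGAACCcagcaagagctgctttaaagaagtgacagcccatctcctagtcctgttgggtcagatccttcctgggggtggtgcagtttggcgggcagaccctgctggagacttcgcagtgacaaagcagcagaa
Vdr, chr15:97908297-97908546: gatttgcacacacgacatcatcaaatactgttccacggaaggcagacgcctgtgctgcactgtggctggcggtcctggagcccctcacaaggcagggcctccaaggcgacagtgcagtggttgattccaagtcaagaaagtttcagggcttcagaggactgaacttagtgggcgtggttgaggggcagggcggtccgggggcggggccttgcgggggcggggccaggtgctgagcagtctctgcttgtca

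The motifs searched on both strands were 4. The half-site AGGTCA is the common one of nuclear receptors and occurred in 14.0% of all 32851 promoter windows of this length. The half-site GGTTCA is known from vitamin D response elements and occurred in 8.85%. The half-site GGGTGA is another such variant and occurred in 13.8%. The STAT site TTCNNNGAA, the kind through which IFN-gamma signals, occurred in 7.02%, and any of the 3 half-sites in 32.1%. The printed Nrip1 window held GGTTCA at 219 to 214 bases upstream on the gene's strand and at 132 to 127 bases upstream on the other strand, and no STAT match. The window of the second Nrip1 start, not printed, held GGGTGA at 168 to 163 bases upstream on the gene's strand. The Vdr window held none of the 4 motifs. A match describes letters in these windows and is not a measured binding site.

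**Figure D1:**
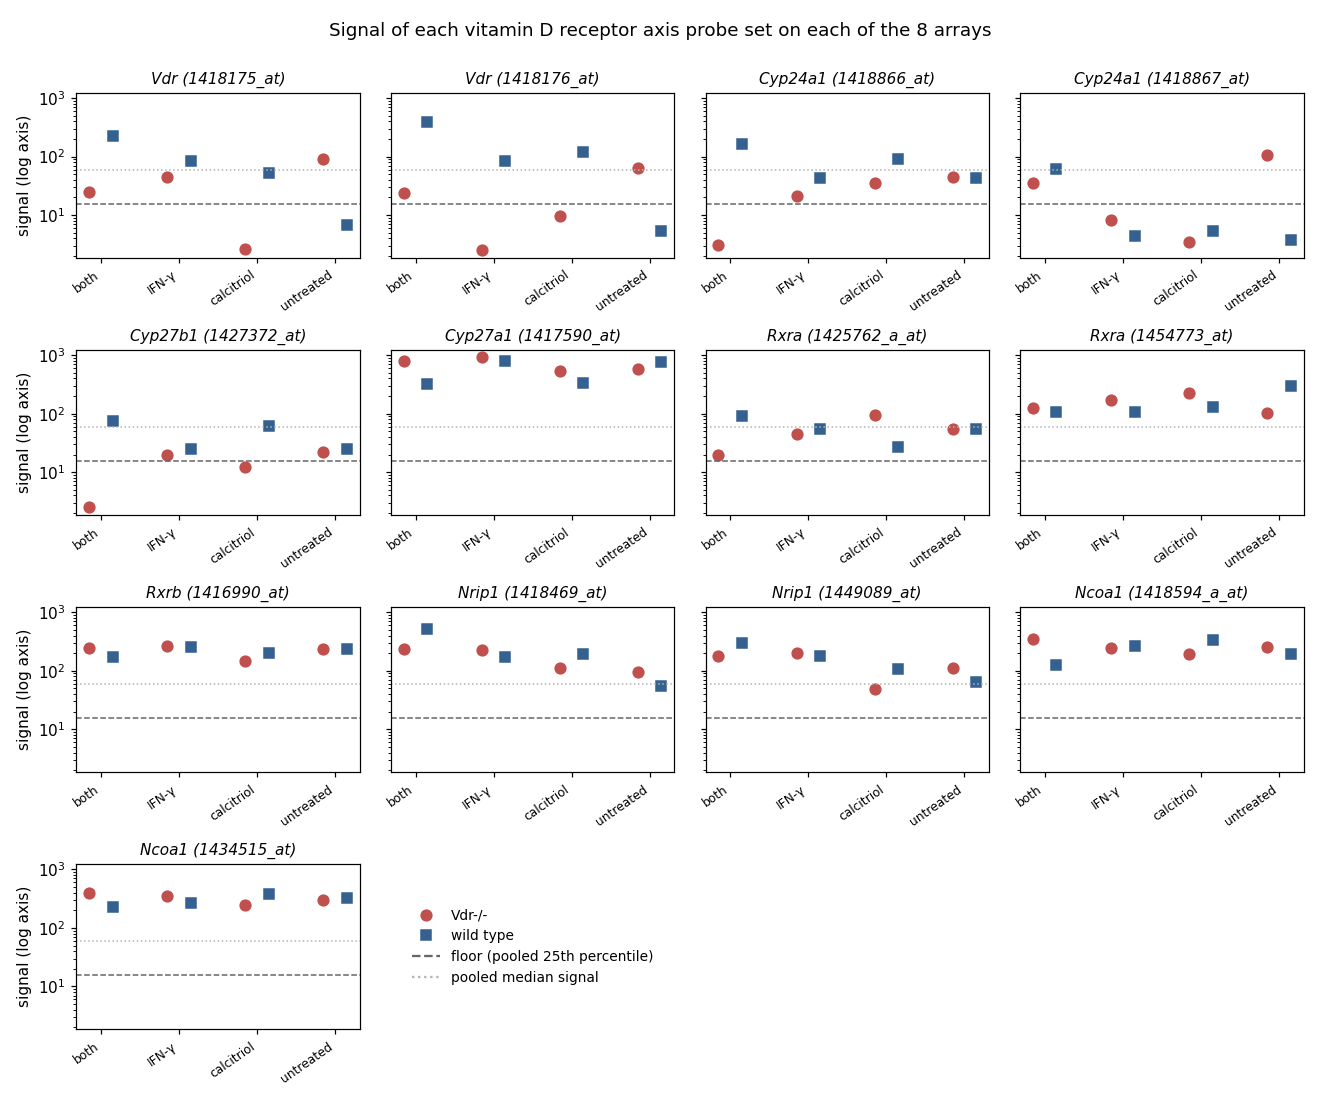
Signal (log axis) of each of the 13 member probe sets on the 8 arrays, by treatment, with Vdr-/- arrays as circles to the left of wild-type arrays as squares; the dashed line is the floor of 15.5 and the dotted line the pooled median signal of 59.1. Both Vdr probe sets are higher in Vdr-/- than in wild type on the arrays labelled untreated and lower in Vdr-/- in the other 3 pairs, while Cyp27a1, Rxrb and Ncoa1 stay well above both lines.

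Many members were read close to background. Of the 104 member signals (13 probe sets on 8 arrays), 13 were at or under the floor of 15.5 and 35 were under the pooled median of 59.1. All 13 signals at the floor belonged to Vdr, Cyp24a1 and Cyp27b1. Cyp27a1, Rxrb, both Ncoa1 probe sets and 1 of the 2 Rxra probe sets never read under 59.1. The sources used here state no detection calls, so the floor stands in for them, and a fold against a value at the floor is given as a lower bound. All 13 member probe sets passed the signal filter, a highest signal of at least 59.1, but Cyp27b1, 1 Rxra probe set and both probe sets of Vdr and Cyp24a1 reached that signal on 2 to 4 arrays only.

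Vdr, the receptor and the targeted gene, comes first as the check of the genotype labels. Probe set 1418176_at read 23.6 on the Vdr-/- array and 385.9 on the wild-type array with both treatments. It read 2.5 and 82.9 with IFN-gamma, and 9.8 and 118.1 with calcitriol, in the same order of genotypes. On the arrays labelled untreated it read 63.2 in Vdr-/- and 5.3 in wild type. Thus 3 pairs had the lower signal in Vdr-/-, and the pair labelled untreated had it in wild type.

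The second Vdr probe set, 1418175_at, gave the same directions. With both treatments it read 25 in Vdr-/- and 226.7 in wild type, with IFN-gamma 45.6 and 84.4, with calcitriol 2.6 and 51.5, and on the arrays labelled untreated 90.3 and 6.7. As folds, the first probe set was 16.4-fold lower in Vdr-/- with both treatments, at least 5.35-fold lower with IFN-gamma and at least 7.62-fold lower with calcitriol. On the arrays labelled untreated it was at least 4.08-fold higher in Vdr-/-. The sources used here do not say whether these probe sets fall inside the deleted stretch, and outside it their signal would be no check of the genotype. Whether the labels of the 2 untreated arrays were exchanged was not tested. An exchange would turn the genotype direction in that pair and change every fold that uses either array. In RNA from a whole culture, fewer cells that express a gene and less of its RNA per cell cannot be told apart. The main member results that use these arrays are also given without them.

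Over the 4 genotype pairs, the limma fit gave Vdr 1418176_at a log2 difference of -1.84 for Vdr-/- minus wild type (SE 0.796, adjusted p = 0.999), lower in 3 of 4 pairs. Vdr 1418175_at had -0.81 (SE 0.768, adjusted p = 0.999). Without the pair labelled untreated the differences were -3.13 and -1.93 (adjusted p = 0.854 for both). Without the pair with both treatments they were -1.11 and -0.03 (adjusted p = 1 for both), and without the pair with calcitriol the second was -0.51 (adjusted p = 0.962). Neither probe set passed the test in any of these fits. Limma called 0% of all 18058 tested probe sets for genotype, and 3.38% had an unadjusted p under 0.05, among them the members Vdr 1418176_at and Cyp24a1 1418866_at (-1.43 log2, SE 0.683, adjusted p = 0.999). The Cyp24a1 difference was -0.78 log2 without the pair with both treatments (adjusted p = 1). Cyp27b1 was the only member lower in Vdr-/- in all 4 pairs, where 4.66% of all were, and 0 members were higher in all 4, where 4.37% were. Cyp27b1 and Cyp24a1 1418866_at reached the signal filter only on the wild-type arrays with calcitriol, so their lower values in Vdr-/- support nothing. In the pair labelled untreated the Gapdh ratio was 4.82 in Vdr-/- and 1.11 in wild type.

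**Figure D2:**
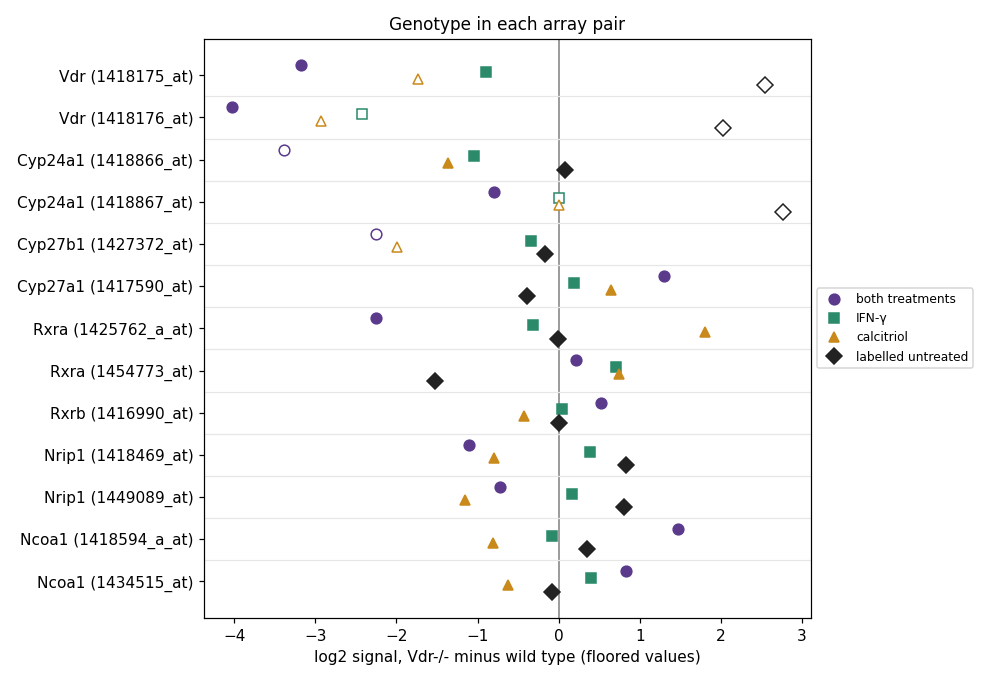
Log2 difference in signal, Vdr-/- minus wild type, for each member probe set (rows) in each of the 4 treatments (symbols); open symbols have at least 1 of the pair at the floor of 15.5. For both Vdr probe sets 3 pairs lie below 0 and the pair labelled untreated lies at 2.54 and 2.03, while Cyp27b1 lies below 0 in all 4.

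Within wild type, the order of Vdr 1418176_at from high to low was both treatments (385.9), calcitriol (118.1), IFN-gamma (82.9) and the array labelled untreated (5.3). For 1418175_at it was both treatments (226.7), IFN-gamma (84.4), calcitriol (51.5) and untreated (6.7). The probe sets thus agree on the ends of the order, and the places of the single treatments are not settled. With 1 array each, no neighbours in these orders can be said to differ beyond replicate spread.

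The enzymes of calcitriol follow. Cyp24a1, whose product breaks calcitriol down, is the usual check of a calcitriol label. In wild type, probe set 1418866_at read 161.7 with both treatments against 43.1 with IFN-gamma alone, and 92.4 with calcitriol against 43.1 on the array labelled untreated. In Vdr-/- it read 3.1 against 21, and 35.7 against 45.4, in the same comparisons. So it was 3.75-fold and 2.14-fold higher with calcitriol in the wild-type pairs, and not higher in either Vdr-/- pair. The calcitriol and genotype labels call for this direction. However, this probe set reached the signal filter only on the wild-type arrays with calcitriol, and its 3.1 in Vdr-/- was under the floor. Its direction therefore supports nothing about the labels.

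The second Cyp24a1 probe set, 1418867_at, was mostly at the floor. It read 60.6 on the wild-type array with both treatments, against 4.4 with IFN-gamma, at least 3.91-fold higher. With calcitriol alone in wild type it read 5.4, against 3.7 on the array labelled untreated, both under the floor. Its highest value of all, 105.8, was on the array labelled Vdr-/- untreated, and the Vdr-/- calcitriol array read 3.5. The Vdr-/- array with both treatments read 34.9 and the Vdr-/- IFN-gamma array 8.2. The 2 probe sets of Cyp24a1 thus went opposite ways with calcitriol in the Vdr-/- IFN-gamma pair, and the second gave no reading in the wild-type pair without IFN-gamma. The limma fit gave calcitriol in wild type a log2 change of 1.5 for 1418866_at (SE 0.891, adjusted p = 0.592) and 0.98 for 1418867_at (SE 1.04, adjusted p = 0.771).

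Cyp27b1, which makes calcitriol, has 1 probe set, 1427372_at. In wild type it read 73.7 with both treatments against 25 with IFN-gamma, and 61.6 with calcitriol against 24.6 on the array labelled untreated, 2.95-fold and 2.5-fold higher. In Vdr-/- it read 2.5 against 19.8 and 12.1 against 21.9. All 4 Vdr-/- values lay under all 4 wild-type values, and 1.27% of the 18058 tested probe sets were likewise lower in Vdr-/- without overlap. However, Cyp27b1 reached the signal filter only on the wild-type arrays with calcitriol (73.7 and 61.6). It was thus tested only because it was high in wild type, and its separation by genotype supports nothing. No member was above without overlap, where 0.93% of all were. The fitted genotype difference was -1.19 log2 (SE 0.674, limma adjusted p = 0.999), lower in 4 of 4 pairs. Between IFN-gamma and none, the wild-type signals were 73.7 against 61.6 with calcitriol and 25 against 24.6 without it, and the fitted change was 0.03 log2 (SE 0.632, limma adjusted p = 0.994). These signals are near background, so a small change would not be detectable here.

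Cyp27a1 encodes a mitochondrial sterol hydroxylase that also adds a hydroxyl group to vitamin D, an early step towards calcitriol. It was read well above background on every array. In Vdr-/- cells probe set 1417590_at read 800.8 with both treatments against 916.7 with IFN-gamma, and 533.7 with calcitriol against 587.8 on the array labelled untreated. In wild-type cells it read 324.7 against 801.9, and 339.3 against 767.9. Both wild-type calcitriol arrays thus lay below the other 6. The fit gave -1.24 log2 for calcitriol in wild type (SE 0.33, limma adjusted p = 0.0945, unadjusted p = 0.00103), lower in 2 of 2 pairs, and -0.17 log2 in Vdr-/- (SE 0.33, adjusted p = 0.983). The difference between these effects was 1.07 log2 for Vdr-/- minus wild type (SE 0.467, adjusted p = 0.349). None of these passed the test over all probe sets.

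Among the receptor partners, Rxra and Rxrb encode retinoid X receptors, with which the vitamin D receptor pairs on DNA. Rxrb 1416990_at was the flattest member together with 1 Ncoa1 probe set, and its highest signal was 1.78-fold its lowest. It read 243.7, 263, 147.5 and 232.5 in Vdr-/- with both, IFN-gamma, calcitriol and on the array labelled untreated, against 170.1, 256.1, 198.3 and 231.6 in wild type. The genotypes overlap throughout, and the largest of its fitted treatment and genotype changes was -0.41 log2, for calcitriol in wild type (SE 0.438, limma adjusted p = 0.774).

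The 2 Rxra probe sets did not follow each other. Probe set 1454773_at was highest on the array labelled wild-type untreated, at 292.5, and lowest on the array labelled Vdr-/- untreated, at 102.1. The other 6 arrays ranged between 106.1 and 222.6. Probe set 1425762_a_at read 53.8 and 54.2 on those 2 arrays, its middle, and its ends were 93.7 with calcitriol and 19.4 with both treatments, both in Vdr-/-. No contrast passed the limma test for either, with adjusted p = 0.703 and 0.949 for IFN-gamma.

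Nrip1 encodes a ligand-dependent corepressor of nuclear receptors that is known as a regulator of metabolism and of inflammatory gene expression in macrophages, and it rose with IFN-gamma on both of its probe sets. With IFN-gamma 1418469_at read 239.2 and 225 in Vdr-/-, and 513.6 and 172 in wild type, each with and without calcitriol. Without IFN-gamma it read 112.6 and 97 in Vdr-/-, and 196.6 and 54.5 in wild type. It was higher with IFN-gamma in 4 of 4 pairs, although 1 array without the cytokine, wild-type calcitriol, lay above the lowest with it.

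The second Nrip1 probe set, 1449089_at, read 180.5 and 203 in Vdr-/- and 296.8 and 181.5 in wild type with IFN-gamma. Without it the signals were 48.2 and 111.5 in Vdr-/- and 106.7 and 63.5 in wild type, again with calcitriol first. All 4 arrays with IFN-gamma lay above all 4 without it, as for 3.07% of tested probe sets. The fitted rises were 1.34 log2, or 2.52-fold, for 1418469_at (SE 0.332, limma adjusted p = 0.02) and 1.44 log2, or 2.71-fold, for 1449089_at (SE 0.379, adjusted p = 0.0308).

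Over the 13 member probe sets, limma called 2 higher and 0 lower with IFN-gamma, both of them Nrip1, where 3.43% of all 18058 tested probe sets were called and 2.15% were called higher. At an unadjusted p under 0.05 there were the same 2 members, and 12.4% of all. These 2 were also the members higher in all 4 pairs, where 7.55% of all were, and 0 were lower in all 4, where 10.4% were. The median change of the members was 0.09 log2, and that of all tested probe sets -0.08. Both calls were lost without the signal filter (adjusted p = 0.113 and 0.184), without the intensity trend, without the pair blocks and with any of the 4 pairs left out, while the change stayed between 1.23 and 1.93 log2. Leaving out the 2 arrays of highest 3'/5' ratio gave 1.75 and 1.93 log2 (adjusted p = 0.328 and 0.234), and 1.24 and 1.69 log2 without the 2 arrays labelled untreated (adjusted p = 0.784 for both, with 1 residual degree of freedom). The summed signals of 3 marker lists also separated the arrays by IFN-gamma. The 5 stromal markers summed to 89.6 to 243.8 with it and 335.6 to 526.8 without it, and the 7 neutrophil markers to 201.4 to 280.8 with it and 303.6 to 422.8 without it. The 8 macrophage markers summed to 35508.2 to 51927.1 with it and 53715.1 to 59143.3 without it. Within that list only Lyz2 was apart, with 16652.0 to 19935.8 with it and 20609.0 to 28242.7 without it. Csf1r, the other large part of that sum, overlapped, with 9768.9 to 18893.0 and 14814.1 to 23760.8. Fcgr1 went the other way, with 557.8 to 3897.0 and 145.2 to 1446.7. S100a8 was the only neutrophil marker above the floor on every array. It overlapped, with 96.9 to 158.8 with IFN-gamma and 63.6 to 209.7 without it. The part of these marker sums in the Nrip1 result was not tested.

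**Figure D3:**
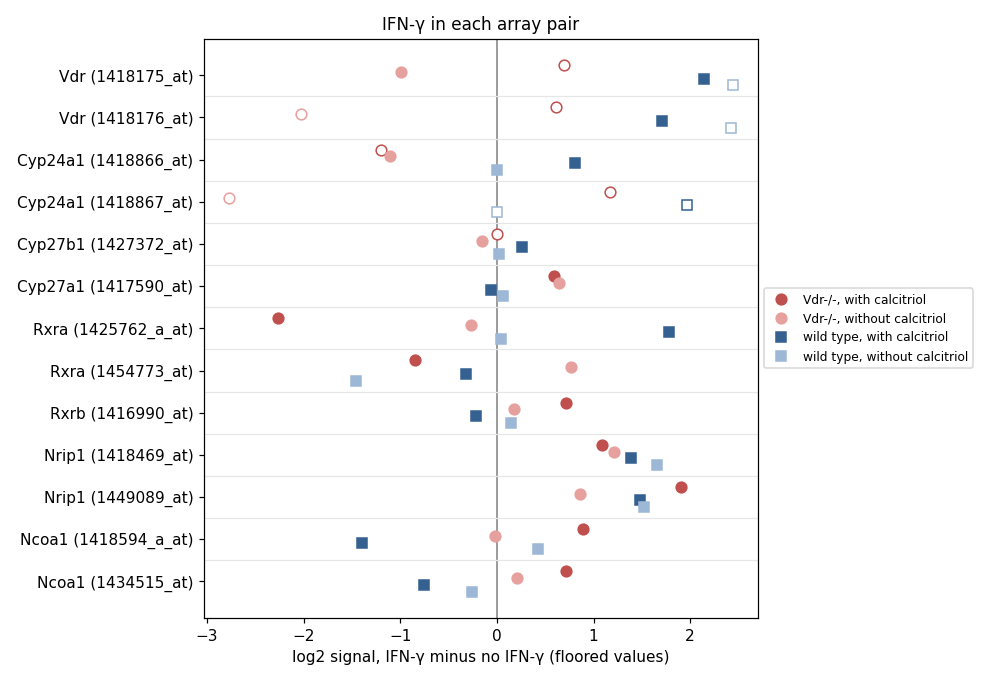
Log2 difference in signal, IFN-gamma minus no IFN-gamma, for each member probe set (rows) in the 2 Vdr-/- pairs (circles) and the 2 wild-type pairs (squares), with and without calcitriol; open symbols have at least 1 of the pair at the floor. Both Nrip1 probe sets lie above 0 in all 4 pairs, between 0.86 and 1.90, and no other member does.

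For Vdr, the IFN-gamma pairs without calcitriol ran in opposite directions in the 2 genotypes, and both use an array labelled untreated. In wild type 1418176_at read 82.9 with IFN-gamma and 5.3 on the array labelled untreated, at least 5.35-fold higher, whereas in Vdr-/- it read 2.5 with IFN-gamma and 63.2 on the array labelled untreated, at least 4.08-fold lower. With calcitriol, IFN-gamma gave 385.9 against 118.1 in wild type, a 3.27-fold higher signal, and 23.6 against 9.8 in Vdr-/-, at least 1.52-fold higher. In these pairs, which use neither untreated array, the direction was the same in both genotypes, and for 1418175_at too, with 226.7 against 51.5 in wild type and 25 against 2.6 in Vdr-/-. The difference in IFN-gamma effect, Vdr-/- minus wild type, was -2.77 log2 for 1418176_at (SE 1.3, limma adjusted p = 0.996). It was -1.46 log2 without the Vdr-/- pair without calcitriol (adjusted p = 1) and -4.09 log2 without the Vdr-/- pair with calcitriol (adjusted p = 0.999). No member passed this test, in which limma called 0% of all probe sets, 635 having an unadjusted p under 0.05.

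Ncoa1, a coactivator of liganded nuclear receptors, was read well above background by both probe sets. Probe set 1418594_a_at read 354.4 in Vdr-/- and 127.5 in wild type with both treatments, its highest and lowest values, and 1434515_at read 399.9 and 224.4 there, also its highest and lowest. On the other 6 arrays they ranged from 191.7 to 336 and from 245.1 to 377.9. Fitted changes over the pairs were small, at -0.03 and -0.02 log2 for IFN-gamma (SE 0.336 and 0.284, limma adjusted p = 0.989 for both).

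Calcitriol was then compared with no calcitriol across the members, within each genotype. In wild type, 6 of 13 member probe sets were higher in both pairs (both probe sets of Vdr and of Nrip1, Cyp24a1 1418866_at and Cyp27b1) and 2 were lower in both (Cyp27a1 and Rxrb). Over all tested probe sets 26.8% were higher and 22.9% lower in both wild-type pairs. Cyp24a1 1418866_at and Cyp27b1 were tested only because they were high on the wild-type calcitriol arrays, so their part of the 6 supports nothing. In Vdr-/- 1 of 13 was higher in both pairs, Nrip1 1418469_at, and 6 were lower in both, against 21.6% and 27.8% of all. Vdr 1418175_at, Cyp24a1 1418866_at, Cyp27b1 and Nrip1 1449089_at were higher in both wild-type pairs and lower in both Vdr-/- pairs. The share of all tested probe sets with such opposite directions was not counted, so this list is a description only. All of them but Nrip1 1449089_at had a Vdr-/- calcitriol value under the floor. The limit given above for Cyp24a1 1418866_at and Cyp27b1 holds here too.

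**Figure D4:**
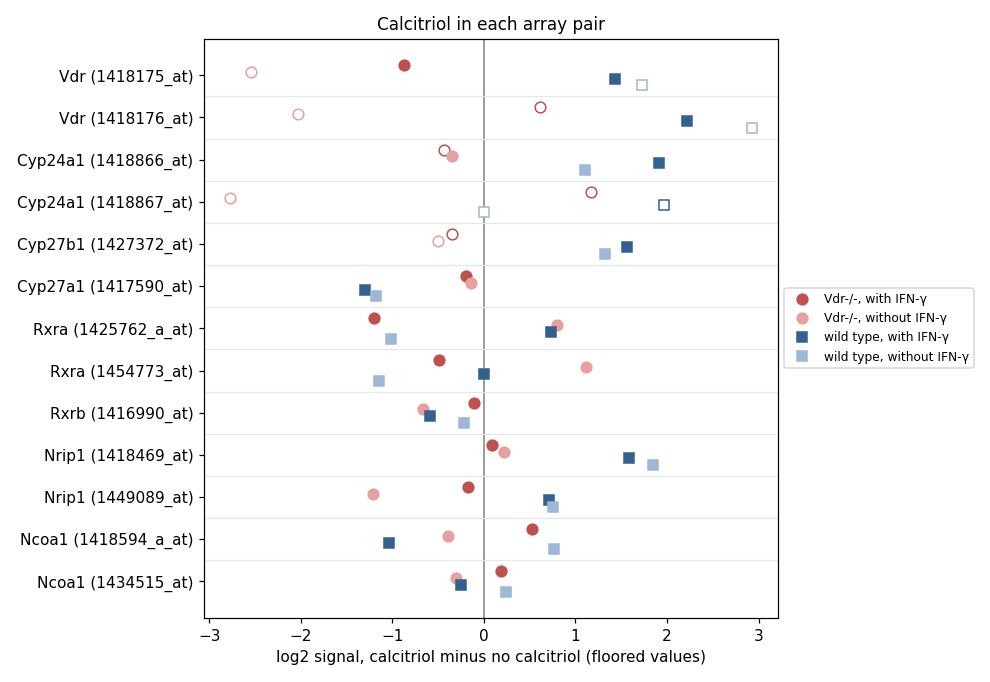
Log2 difference in signal, calcitriol minus no calcitriol, for each member probe set (rows) in the 2 Vdr-/- pairs (circles) and the 2 wild-type pairs (squares), with and without IFN-gamma; open symbols have at least 1 of the pair at the floor. The wild-type pairs of Vdr, Nrip1, Cyp27b1 and Cyp24a1 1418866_at lie to the right of 0 and those of Cyp27a1 to the left, at -1.30 and -1.18, while the Vdr-/- pairs of Cyp27a1 lie at -0.20 and -0.14.

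No member passed the limma test for calcitriol. In wild type 0.576% of all tested probe sets were called and 0 of 13 members, with 3 members at an unadjusted p under 0.05 against 10.3% of all. These were Cyp27a1 (above), Nrip1 1418469_at with 1.71 log2 (SE 0.481, adjusted p = 0.125) and Vdr 1418176_at with 2.57 log2 (SE 0.921, adjusted p = 0.293). Without the 2 arrays labelled untreated the changes were -1.14, 1.5 and 1.94 log2 (adjusted p = 0.844 for all 3). In Vdr-/- 0.194% of all were called and 0 members, with 0 members and 6.35% of all at an unadjusted p under 0.05. The median change of the members with calcitriol was 0.73 log2 in wild type and -0.38 log2 in Vdr-/-, and that of all tested probe sets 0.05 and -0.08 log2. Cyp24a1 1418866_at (1.5 log2 in wild type) and Cyp27b1 (1.44 log2) count in both member medians. They were tested only because they were high on the wild-type calcitriol arrays, so these member medians support nothing.

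The difference between the calcitriol effects, Vdr-/- minus wild type, was -3.28 log2 for each Vdr probe set (SE 1.26 for 1418175_at and 1.3 for 1418176_at, limma adjusted p = 0.265 and 0.288). For Nrip1 1418469_at it was -1.56 log2 (SE 0.681, adjusted p = 0.349). Limma called 1.5% of all probe sets for this difference and 0 members, with 4 members at an unadjusted p under 0.05 against 12.2% of all. Without the 2 arrays labelled untreated, the Vdr differences were -1.57 and -1.06 log2 (adjusted p = 0.857 for 1418175_at and 0.878 for 1418176_at), and that of Nrip1 1418469_at was -1.34 log2 (adjusted p = 0.83). For 1418176_at the difference was -1.97 log2 without the Vdr-/- pair without IFN-gamma (adjusted p = 0.98) and -1.61 log2 without the 2 arrays of highest 3'/5' ratio (adjusted p = 0.779). For 1418175_at it was -1.57 log2 with the floor at the 40th percentile (adjusted p = 0.461).

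The 2 arrays on which both calcitriol and the wild-type receptor gene were present, wild-type calcitriol and wild-type with both treatments, were set against the other 6, a comparison chosen after the values were seen. They lay above all 6 for 3 of 13 member probe sets, Vdr 1418176_at (118.1 and 385.9, against at most 82.9), Cyp24a1 1418866_at (92.4 and 161.7, against at most 45.4) and Cyp27b1 (61.6 and 73.7, against at most 25). However, Cyp24a1 1418866_at and Cyp27b1 reached the signal filter of 59.1 on these 2 arrays alone, so they were tested only because they were high there, and their part of the count supports nothing. The 2 arrays lay below all 6 for 1, Cyp27a1 (339.3 and 324.7, against at least 533.7). Over all tested probe sets 6.17% lay above and 3.63% below. The second probe sets of Vdr and Cyp24a1 were not apart. On the wild-type calcitriol array 1418175_at read 51.5 and 1418867_at 5.4, against 90.3 and 105.8 on the array labelled Vdr-/- untreated. The 4 probe sets named as apart were also apart without the 2 arrays labelled untreated, where 12.2% and 7.63% of all were. They could not cease to be, since both arrays left out belong to the other 6. Leaving out the 2 arrays of highest 3'/5' ratio kept 1 wild-type calcitriol array, which lay above the other 5 for 7 members (20.8% of all) and below for 4 (15.3% of all). The 2 Vdr-/- calcitriol arrays lay below the other 6 for Cyp27b1 alone among the members, as did 2.52% of all.

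Values that moved with these 2 arrays were the summed signals of low-level markers. Lymphoid markers (4 measured genes) summed to 182 and 172.3 there and to 49.3 to 126 on the other 6, and dendritic markers (4 genes) to 155.7 and 184.8 against 67 to 146.5. Of these 8 markers, 0 read above the floor on all 8 arrays. Single markers were mixed on the 2 arrays, given with calcitriol alone first. Cd79a read 52.0 and 70.7, against at most 51.0 elsewhere, but Cd3e read 47.6 and 15.3, and Zbtb46 6.7 and 63.3. The Gapdh 3'/5' ratio was 7.67 on one of the 2 arrays and 1.65 on the other. Their part in the member values was not tested. In the wild-type IFN-gamma pair, 1 array each, the ratio was 1.65 with calcitriol and 1.04 without, the lymphoid sum 172.3 and 125.9, and the dendritic sum 184.8 and 138.8.

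The wild-type array with both treatments held an end of the range for most members. It was the highest of the 8 arrays for 6 of 13 member probe sets (both of Vdr and of Nrip1, Cyp24a1 1418866_at and Cyp27b1) and the lowest for 3 (Cyp27a1 and both of Ncoa1). Over all tested probe sets it was highest for 12.3% and lowest for 9.53%. Cyp24a1 1418866_at and Cyp27b1 were tested only because they were high on this array and the wild-type calcitriol array, so their part of the 6 supports nothing. No other array was at an end for more than 4 of the 13. The wild-type calcitriol array was at an end for 0 of 13, although it was at an end for 34.5% of all tested probe sets, more than any other array. Summed macrophage marker signal was lowest on the wild-type array with both treatments, at 35508.2 against 43181.3 to 59143.3 elsewhere, and its part was not tested. Within the sum Csf1r was lowest there, at 9768.9, whereas Lyz2 read 19025.4 there and 16652.0 in Vdr-/- with IFN-gamma.

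Among other genes of the pathway, few passed a test. Of 13 further receptor partners and coregulators 11 were tested and 0 were called in any of the 6 contrasts by limma, with medians of -0.13 log2 for IFN-gamma and 0.19 log2 for calcitriol in wild type. Of 9 genes of vitamin D metabolism, transport and electron supply 4 were tested and 0 called in any of the 6. Of 23 genes described as calcitriol targets in some cell type 16 were tested, with medians of -0.37 log2 for IFN-gamma and 0.54 log2 for calcitriol in wild type, beside -0.08 and 0.05 over all probe sets. Several of these 16 genes reached the signal filter only on wild-type calcitriol arrays. They were tested only because they were high there, so the median for calcitriol supports nothing. With IFN-gamma 1 rose and 1 fell, where 3.43% of all probe sets were called. With calcitriol in wild type 1 rose and 1 fell, where 0.576% of all were called.

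With IFN-gamma, Cdkn1a, the gene of the cell cycle inhibitor p21, rose (change 0.97 log2, SE 0.23, limma adjusted p = 0.0136). Gadd45a, a growth arrest gene, fell (change -1.48 log2, SE 0.355, limma adjusted p = 0.0151). Both calls were lost under 8 of 13 alternatives, among them each left-out pair, and the changes were 0.72 and -0.79 log2 without the 2 arrays labelled untreated (adjusted p = 0.784 for both). The 2 called with calcitriol in wild type were Bhlhe40, a transcription repressor, and Cd14, the lipopolysaccharide co-receptor. Bhlhe40 read 276 and 563.2 with calcitriol, against 14 with IFN-gamma alone and 161.9 on the array labelled untreated, a change of 2.98 log2 (SE 0.671, adjusted p = 0.0385) with 1 of these values under the floor. Cd14, which human monocytes are known to induce with calcitriol, read 228.3 and 422.3 against 935.8 and 2051.8, a change of -2.16 log2 (SE 0.366, adjusted p = 0.00636). Cd14 also stands in the macrophage marker list. The Bhlhe40 call was lost under 9 of 11 alternatives and the Cd14 call under 8 of 11, including either wild-type pair left out (adjusted p = 0.451 to 0.682). Without the 2 arrays labelled untreated the changes were 4.66 and -2.17 log2 (adjusted p = 0.844 for both), and without the wild-type IFN-gamma pair that of Bhlhe40 was 1.8 log2. Their calcitriol effects also differed between the genotypes, by -4.42 log2 for Bhlhe40 (adjusted p = 0.0138) and 2.73 log2 for Cd14 (adjusted p = 0.00558), Vdr-/- minus wild type. These calls were lost under 10 and 9 of 13 alternatives, including each left-out pair, and the Cd14 difference was 1.72 log2 without the 2 arrays of highest 3'/5' ratio (adjusted p = 0.702).

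The genes whose pattern over the 8 arrays was most like that of Vdr and Cyp24a1 were sought by the root mean square difference between log2 profiles, each centred on its own mean, over 10436 other genes. For Vdr 1418176_at these were Tanc1 (0.51 log2), Cngb3 (0.68), Fam131a (0.69), Hopx (0.74) and Gpatch4 (0.78), where the median gene was at 1.7. Tanc1 read 197.6 on the wild-type array with both treatments, 66.9 with calcitriol and 37.5 with IFN-gamma in wild type, and 53.1 on the array labelled Vdr-/- untreated against 8.8 on the array labelled wild-type untreated. Its order on the arrays labelled untreated is that of Vdr, with 8.8 under the floor. Tanc1 was picked for likeness over these same 8 arrays, so this order supports nothing about the labels. For Cyp24a1 1418866_at the nearest were Tlx1 (0.39), the growth factor gene Pdgfa (0.39), Hoxa10 (0.40), the transcription factor gene Egr2 (0.41) and the member Cyp27b1 (0.43), where the median gene was at 1.17.

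Pdgfa read 86.3, 150, 142.7 and 165.7 in Vdr-/- with both, IFN-gamma, calcitriol and on the array labelled untreated, against 951.7, 132.8, 400.8 and 263.5 in wild type. Egr2 read 54.2, 77.6, 110.9 and 201.6 in Vdr-/-, against 308, 82.7, 310.4 and 117.4 in wild type. For both genes the wild-type calcitriol arrays lay above the other 6. These genes were picked for their likeness, so their values are a description.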

How the data were processed

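Each array is 1 sample of total RNA. The deposited values are probe set intensity signals on a linear scale, and the values show that the authors scaled each array to 1 trimmed mean (150.07 to 150.08). The sources used here state neither software nor detection calls. A protocol for elicited peritoneal cells also stands in the labels, but each source name gives bone marrow derived macrophages.

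The 64 control probe sets were set aside. Signals were floored at the pooled 25th percentile (15.5) and put on the log2 scale, and the tests ran on the 18058 probe sets with a top signal of at least the pooled median (59.1). Of their values, 15.5% were at the floor. Probe sets with several genes (691) or none (1555) stayed in the tests unnamed. Each member probe set is reported singly, and other genes by their brightest.

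All tests were run in R 4.3.3 (limma 3.58.1) with an intensity trend, two-sided, Benjamini-Hochberg adjusted across those probe sets at 0.05. IFN-gamma and genotype fits held the 4 array pairs as a block (residual degrees of freedom 3), and calcitriol effects and differences were nested in genotype (2). Mice or cultures and genotype cannot be told apart. In simulated data, a set change of 2 log2 was recovered for 59.5% of 200 changed probe sets with IFN-gamma and 43.0% for genotype. The share was 22.0% for calcitriol in wild type, 31.0% in Vdr-/-, 6.0% for the calcitriol difference and 5.0% for the IFN-gamma difference. False calls numbered 0 to 8. A member left uncalled was thus not shown to be unchanged. Figures used Python 3.11.15 and matplotlib 3.10.9.

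The members, lists and tests were chosen with earlier results of these data known. Named genes were all member probe sets, the called genes of 3 pathway lists (at most 4 a contrast and list), the IFN-gamma label genes and the 5 genes nearest to Vdr and to Cyp24a1. Alternatives were quantile normalization, other floors and filters, no trend, no blocks, array pairs left out, and fits without doubted arrays.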

Additional observations from a re-analysis of the deposited data

How the results depend on the processing

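The 2 members called for IFN-gamma, both Nrip1, were 2 after quantile normalization, with floors at the 10th and 40th percentiles and with a stricter filter. The count was 0 without the signal filter, without the intensity trend, without the pair blocks, without the pair of arrays highest in 3'/5' ratio and without the 2 arrays labelled untreated, and 0 to 0 with each array pair left out in turn. Part of this follows from construction, since those fits test more probe sets or hold fewer arrays, and otherwise the cause was not tested. The count over all probe sets for IFN-gamma was 619 in the main setting and 0 to 638 across settings, for calcitriol in wild type 104 and 0 to 135, for calcitriol in Vdr-/- 35 and 0 to 58, and for the calcitriol difference 271 and 0 to 334. For genotype, the calcitriol contrasts and the IFN-gamma difference, limma called 0 members in the main setting and under each alternative run. The 13 fitted member changes recomputed under the alternatives were those with an unadjusted limma p under 0.05 in the main fit, and both Vdr probe sets for genotype. None of these 13 changed sign, nor did the 6 called changes of Cdkn1a, Gadd45a, Bhlhe40 and Cd14. Settings that alter only the filter, the trend or the blocks leave the estimate as it was, so they could not turn a sign. The count of members apart on the wild-type calcitriol arrays was 4 with all 3 floors and without the arrays labelled untreated. Leaving out the arrays labelled untreated could only keep or raise this count, since both belong to the arrays compared against. Without the pair of arrays highest in 3'/5' ratio, which leaves 1 wild-type calcitriol array against 5, it was 11 (7 above and 4 below, where 20.8% and 15.3% of all probe sets were), since 1 array is more easily apart than 2. That comparison and its alternatives, the ends of the range, the alternatives for those 4 genes and the fit with 1 shared IFN-gamma effect were chosen after seeing the data. The fit without the arrays labelled untreated was not run for the IFN-gamma difference, since it shares 1 IFN-gamma effect. The labels carry no replicate numbers, so no fit with such numbers as a block could be made. The blocks used for IFN-gamma and genotype are array pairs matched on the other 2 factors, and the Nrip1 calls rest on them (adjusted p = 0.13 and 0.0651 without them). Signals near background limit Vdr, Cyp24a1 and Cyp27b1.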
